A study of Mus musculus with 6 samples.

Results

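Metallothionein genes and the genes that sense and export zinc were examined in differentiating mouse cells exposed to a histone deacetylase inhibitor. The 5 genes are Mt1, Mt2, Mt3, Mtf1 and Slc30a1, out of 18749 genes that the arrays name, and they were chosen by symbol through the transcript identifier of each probe. They have 8 probes, of which 7 reached the detection filter (well above background on 3 or more arrays out of 6) and were tested. Mt1, Mt2 and Mt3 have 1 probe each, Slc30a1 has 2 and Mtf1 has 3.

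Embryonic stem cells of the 129/Ola mouse strain had been plated on gelatin and differentiated in serum-free N2B27, a defined medium that favours neural differentiation. The arrays hold total RNA of day 3 cells treated for 24 h with trichostatin A (TSA), which blocks class I and II histone deacetylases, or with its solvent DMSO. Each treatment had 3 independent experiments, 1 single-colour (Cy3) Agilent array each, and each of 3 slides carried 1 TSA and 1 DMSO array with the same replicate number. The TSA dose is not given in the sources used here, and TSA and DMSO always lay at different positions of a slide, so the treatment cannot be told apart from the position.

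Metallothioneins are small proteins rich in cysteine that bind zinc and copper, buffer free zinc and take up cadmium. Mt1 and Mt2 are made in most tissues, while Mt3 is mainly a protein of the brain and Mt4, their neighbour in the genome, is mainly one of stratified epithelia. Zinc binds the zinc-finger factor encoded by Mtf1, which then acts at metal response elements in the promoters of Mt1, Mt2 and Slc30a1. The product of Slc30a1 is the zinc exporter of the plasma membrane. Mt1 and Mt2 are also known targets of glucocorticoids and of oxidative stress.

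A level here is log2 of the processed signal of a probe minus the 75th percentile of its array, so that 0 is the 75th percentile and 1 unit is a doubling of signal. A gene was called where the adjusted p of the limma fit over all tested probes was under 0.05. Of 14527 tested genes, 197 rose in TSA cells (1.36%) and 8 fell (0.0551%), and of all tested probes 0.92% were called higher and 0.0355% lower. With the slide as a term of the fit 3.19% of genes rose and 0.145% fell, and without TSA replicate 2 the shares were 2.97% and 0.2%. The median difference over the tested genes, TSA minus DMSO, was 0.08, and 58.1% of them had a higher mean in TSA cells. Between 61.1% and 72.3% of the spots of an array were well above background. TSA replicate 2 was the dimmest array, with a 75th percentile of 311 intensity units, against 632 to 926 on the other 5. Relative to that percentile, the 8 added control RNAs were 0.05, 1.45 and 0.11 higher on the TSA array than on the DMSO array of slides 1, 2 and 3, so values within each slide are given for the 5 genes, for Slc30a2 and for the metal and stress lists. All 8 pluripotency markers and all 8 neural progenitor markers of the lists used were detected. The summed signals of the pluripotency markers were 23.7 to 33.0 times the 75th percentile in TSA cells, against 23.7 to 45.4 times in DMSO cells. Those of the neural progenitor markers were 9.46 to 11.02 times in TSA and 11.2 to 13.2 times in DMSO cells. Pou5f1 and Nes led these sums, with differences of -0.50 and -0.38. Gene by gene, 6 of the 8 pluripotency and 4 of the 8 neural progenitor markers had a higher mean in TSA cells. The median differences of the 2 lists were 0.39 and -0.13.

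The sites that carry the response to zinc are short. The core of the metal response element was searched as TGCACNC and TGCGCNC on both strands of the RefSeq promoter windows (GRCm38.p6), which run from 250 bases before to 50 bases after a gene's start. Of 32851 windows, 25.7% held at least 1 match, 7.11% at least 2, 1.97% at least 3 and 0.517% at least 4. Mt2 had 4 matches, Mt1 had 3, Slc30a1 had 2, Mt3 and Mt4 had 1 each, and Mtf1 had 0. No match overlapped another. The sites of Mt1, the gene that rose, and those of its relatives are shown on the plus strand, with the matched letters in capitals.
Mt1, chr8:94179055-94179084: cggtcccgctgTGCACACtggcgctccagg
Mt1, chr8:94179089-94179118: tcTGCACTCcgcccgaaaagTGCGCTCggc
Mt2, chr8:94172384-94172413: agcatcgcctcTGCACCCggcccctcgggc
Mt2, chr8:94172479-94172508: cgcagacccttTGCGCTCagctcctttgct
Mt2, chr8:94172557-94172586: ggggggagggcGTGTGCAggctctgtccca
Mt2, chr8:94172611-94172640: gaattcgggtcGTGCGCAggcccaggggcg
Mt3, chr8:94152623-94152652: cgggacagcagTGCACACacacggagagca
Mt4, chr8:94137102-94137131: ctcactgggccGTGTGCAgggcgtctggcc
Slc30a1, chr1:191906727-191906756: acgggggttccGAGTGCAaagcaaagtttt
Slc30a1, chr1:191906800-191906829: gcctccgggccGAGCGCAgtcgccgcggac

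These windows differ in where the matches lie. In Mt1, 1 of the 3 matches lies before the start that the window uses and the other 2 shortly after it. In Mt2, 3 of the 4 matches lie before the start. The only match of Mt3 lies after the start, and that of Mt4 before it. These places and the counts of matches follow the start that the window uses. Bases beyond the windows were not searched, so the counts of this motif and of the second motif below may miss sites. Other annotated starts of Mt1 were not examined, and which start these cells use was not tested. The last 2 sites of Mt2 and both sites of Slc30a1 are on the minus strand, as is that of Mt4, so the capitals there read as the reverse complement. A second motif, the antioxidant response element core TGACNNNGC, occurred in 12.4% of windows and once each in those of Mt2 and Slc30a1, and was not found in those of Mt1, Mt3 and Mtf1. A match is a run of letters in a fixed window and does not show that a factor binds there.

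Mt1 rose in TSA cells. Its levels were 7.70, 7.95 and 7.57 in TSA replicates 1, 2 and 3, against 6.47, 6.17 and 6.20 in DMSO replicates 1, 2 and 3. Every TSA array lay above every DMSO array, and the gap between the lowest TSA and the highest DMSO array was larger than the spread within either treatment. The mean was 7.74 ± 0.20 in TSA and 6.28 ± 0.17 in DMSO cells (SD, n = 3 each). The difference was 1.46 ± 0.21 on the log2 scale (SE, 95% interval 0.96 to 1.97), a 2.75-fold higher signal (interval 1.94 to 3.91), with an adjusted p of 0.0412 in limma. Within slides 1, 2 and 3 the differences were 1.23, 1.78 and 1.37. Of the 5 genes 1 rose and 0 fell, beside 1.36% and 0.0551% of all tested genes, and by size of difference it ranked 548 of 14527.

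The Mt1 probe was printed as 10 spots of every array, and the SD among the spots of an array was between 0.033 and 0.051, well below the difference between treatments. Before scaling between arrays, its median spot intensities were 139508, 76940 and 166848 in TSA replicates 1, 2 and 3, against 56011, 47382 and 67727 in DMSO replicates 1, 2 and 3. The direction was therefore the same in the unscaled signals, including those of the dim array. The size on slide 2 depends on the scaling, since the 75th percentile was 311 in TSA replicate 2, against 654 in DMSO replicate 2. Relative to it the control RNAs were 1.45 higher on that TSA array. In bulk RNA, fewer cells of a type and less RNA per cell cannot be told apart. The size of the Mt1 difference changed little when 1 array was left out, while its call was near the threshold. The adjusted p was 0.169, 0.0263 and 0.0974 without TSA replicates 1, 2 and 3, and 0.193, 0.202 and 0.203 without DMSO replicates 1, 2 and 3, with differences of 1.35 to 1.56 in all 6 fits.

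Mt2 did not pass the test. Its levels were 8.26, 8.85 and 8.05 in TSA replicates 1, 2 and 3, against 7.75, 7.23 and 7.48 in DMSO replicates 1, 2 and 3. Here too all TSA arrays lay above all DMSO arrays, a pattern that 16.4% of all tested genes showed (8.29% showed the opposite) and that only Mt1 and Mt2 showed among the 5. The mean was 8.38 ± 0.41 in TSA and 7.49 ± 0.26 in DMSO cells (SD, n = 3 each). The difference was 0.90 ± 0.28 (SE, interval 0.22 to 1.57), 1.86-fold, with an adjusted p of 0.253. Slide 2 carried most of it, since the differences within slides 1, 2 and 3 were 0.50, 1.62 and 0.57. On that slide the control RNAs were 1.45 higher on the TSA than on the DMSO array. Without slide 2 the difference was 0.54, with an adjusted p of 0.234. In unscaled intensity Mt2 read 205042, 143044 and 234764 units in TSA replicates 1, 2 and 3. DMSO replicates 1, 2 and 3 read 136368, 98294 and 165497 units. TSA was higher within each slide, but TSA replicate 2 lay below DMSO replicate 3. The separation of all TSA from all DMSO arrays therefore depended on the scaling.

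Mt3 did not pass the test either. Its levels were -0.43, 0.76 and -0.56 in TSA replicates 1, 2 and 3, against -0.56, -0.53 and -1.20 in DMSO replicates 1, 2 and 3. The groups overlapped, and TSA replicate 2 stood above the other 5 arrays. The mean was -0.07 ± 0.73 in TSA and -0.77 ± 0.38 in DMSO cells (SD, n = 3 each), and the difference of 0.69 ± 0.41 (SE, interval -0.29 to 1.67) had an adjusted p of 0.588. Without TSA replicate 2 the difference was 0.27. In unscaled intensity Mt3 read 497, 527 and 603 units in TSA replicates 1, 2 and 3, against 430, 452 and 402 in DMSO replicates 1, 2 and 3.

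Markers of cells known for metallothionein expression were read beside these values. The 5 tested of 6 astroglia markers summed to 1.71 to 3.08 times the 75th percentile in TSA cells, against 1.58 to 2.37 times in DMSO cells, with Gfap not above background. The 5 tested of 7 visceral endoderm and liver markers summed to 0.483 to 3.39 times in TSA and 0.377 to 2.89 times in DMSO cells, with Ttr and Apoa1 not above background. The highest endoderm sums of both treatments were those of slide 2, the slide with the largest differences of Mt1, Mt2 and Mt3. Sox17 (1.27 in TSA, 0.95 in DMSO) and Gata6 (-0.34 and -0.29) led these sums. Afp, Apob and Gata4 lay at -3.06 or lower on that slide. Among the DMSO arrays, replicate 2 had the lowest level of Mt1 (6.17) and Mt2 (7.23) and the highest of Mt3 (-0.53). Mesendoderm markers summed to 8.21 to 24.7 times in TSA and 3.51 to 11.8 times in DMSO cells. The part of these cells in the metallothionein values was not tested.

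**Figure D1:**
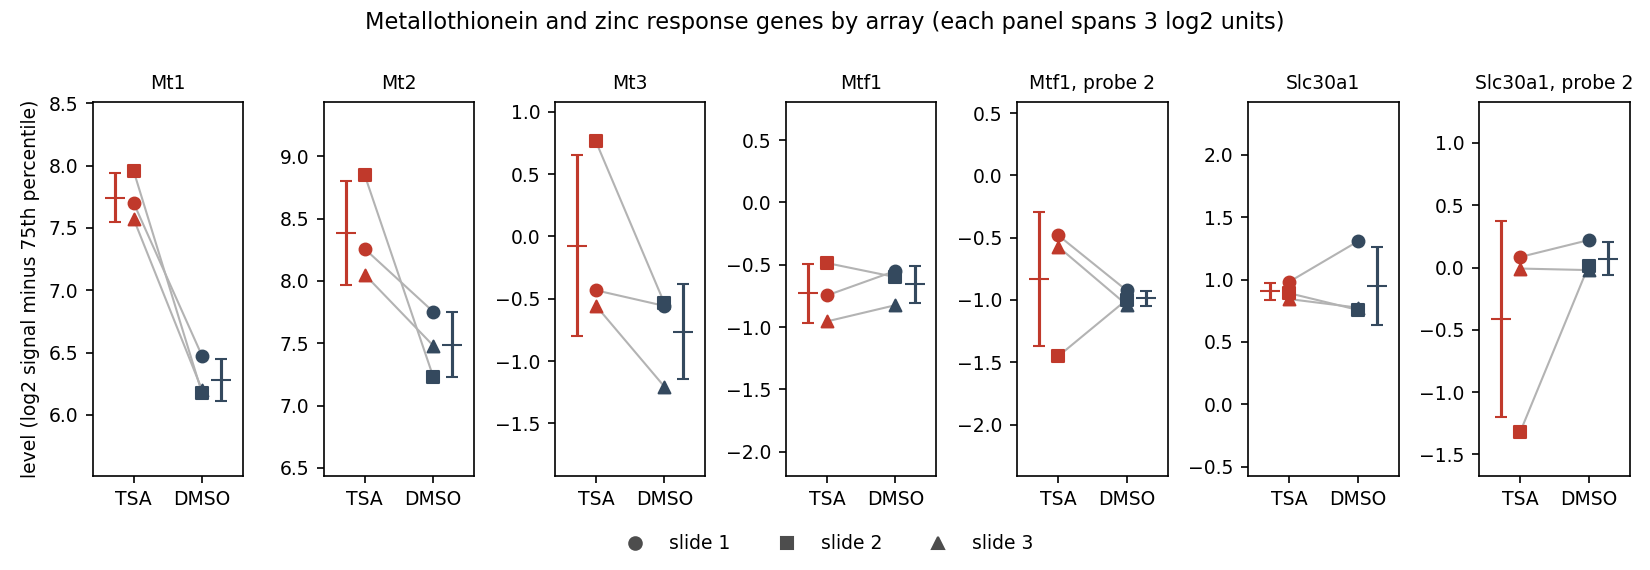
Levels (log2 signal minus the 75th percentile of the array) of the 7 tested probes, TSA at the left and DMSO at the right of each panel, with grey lines joining arrays of a slide and bars giving the mean and SD of 3 arrays. The TSA arrays of Mt1 (7.57 to 7.95) lie above its DMSO arrays (6.17 to 6.47), while the Mtf1 and Slc30a1 panels overlap.

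The genes of the zinc sensor and of the plasma membrane exporter did not pass the test. The Mtf1 probe with the highest mean had levels of -0.75, -0.49 and -0.95 in TSA replicates 1, 2 and 3, against -0.55, -0.60 and -0.82 in DMSO replicates 1, 2 and 3. These ranges overlap, and the difference of -0.07 ± 0.22 (SE, interval -0.59 to 0.45) had an adjusted p of 0.903. The second Mtf1 probe gave 0.15 ± 0.30 (adjusted p 0.849), with -0.48, -1.45 and -0.57 in TSA replicates 1, 2 and 3, against -0.92, -0.999 and -1.04 in DMSO replicates 1, 2 and 3. The probes had opposite signs on every slide, with -0.20, 0.11 and -0.13 for the first and 0.44, -0.45 and 0.47 for the second on slides 1, 2 and 3. Without TSA replicate 2, where it was lowest, the second probe had a difference of 0.46. The remaining Mtf1 probe was above background on 0 arrays.

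Slc30a1, the zinc exporter, had levels of 0.98, 0.89 and 0.84 in TSA replicates 1, 2 and 3, against 1.31, 0.76 and 0.77 in DMSO replicates 1, 2 and 3. The TSA arrays all lay inside the DMSO range. The mean was 0.91 ± 0.07 in TSA and 0.95 ± 0.31 in DMSO cells (SD, n = 3 each), and the difference of -0.04 ± 0.23 (SE, interval -0.59 to 0.50) had an adjusted p of 0.951. As a ratio the interval ran from 0.666-fold to 1.42-fold, below the lower bound of Mt1 (1.94-fold). The second Slc30a1 probe gave -0.49 ± 0.40 (adjusted p 0.668), with 0.08, -1.32 and -0.01 in TSA replicates 1, 2 and 3, against 0.22, 0.02 and -0.02 in DMSO replicates 1, 2 and 3. The probes differed most on slide 2, with 0.13 for the first and -1.33 for the second, and the cause was not tested.

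Whether Mt1 moved more than the other genes was tested on the log2 ratio of their signals within each array. The ratio of Mt1 to Mt2 was 0.56 higher in TSA than in DMSO cells, with 0.72, 0.17 and 0.80 on slides 1, 2 and 3. The ratio of Mt1 to Mtf1 was 1.53 higher and that of Mt1 to Slc30a1 1.501 higher, and the ratio of Mt1 to Mt3 was 0.77 higher. All 3 slides had a positive difference in each of the 4 ratios. The exact two-sided permutation p was 0.1 for the ratios to Mt2, Mtf1 and Slc30a1 and 0.2 for that to Mt3, or 0.133 and 0.2 after adjustment over the 4 ratios. With 3 arrays a treatment 0.1 is the smallest p possible, so none of these could pass the threshold.

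Mt4, Mt3, Mt2 and Mt1 lie in 1 cluster in this order, with 1 other gene of the reference table between Mt3 and Mt2 that was not analysed here. The genes around the cluster were read to see whether the whole neighbourhood moved. Of the 5 tested genes on each side, limma called 0 of 10 (1 had an unadjusted p under 0.05), beside shares of 1.36% that rose and 0.0551% that fell over all tested genes. Their differences ran from -0.24 to 1.20 with a median of 0.16. Of the 10, 7 had a higher mean in TSA cells, beside 58.1% of all tested genes. Mt4 had levels of -3.55, -2.25 and -2.74 in TSA replicates 1, 2 and 3, against -3.20, -2.63 and -2.78 in DMSO replicates 1, 2 and 3. Its groups overlapped and the difference was 0.02 ± 0.37 (SE, interval -0.86 to 0.90, adjusted p 0.984). The nearest tested gene on each side did not pass either. Bbs2, which encodes a subunit of the BBSome of cilia, had -0.15 ± 0.21. Nup93, which encodes a scaffold protein of the nuclear pore, had 0.41 ± 0.27.

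Cpne2, the fifth tested gene beyond Mt1, encodes a copine, a calcium-dependent membrane-binding protein, and had the largest difference of these 10. Its levels were -0.96, -0.11 and -1.07 in TSA replicates 1, 2 and 3, against -2.28, -1.36 and -2.10 in DMSO replicates 1, 2 and 3. All TSA arrays were above all DMSO arrays. The difference was 1.20 ± 0.37 (SE, interval 0.32 to 2.07) with an adjusted p of 0.240, and it passed once the slide was a term of the fit (adjusted p 0.0498). The differences within slides 1, 2 and 3 were 1.32, 1.25 and 1.02.

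**Figure D2:**
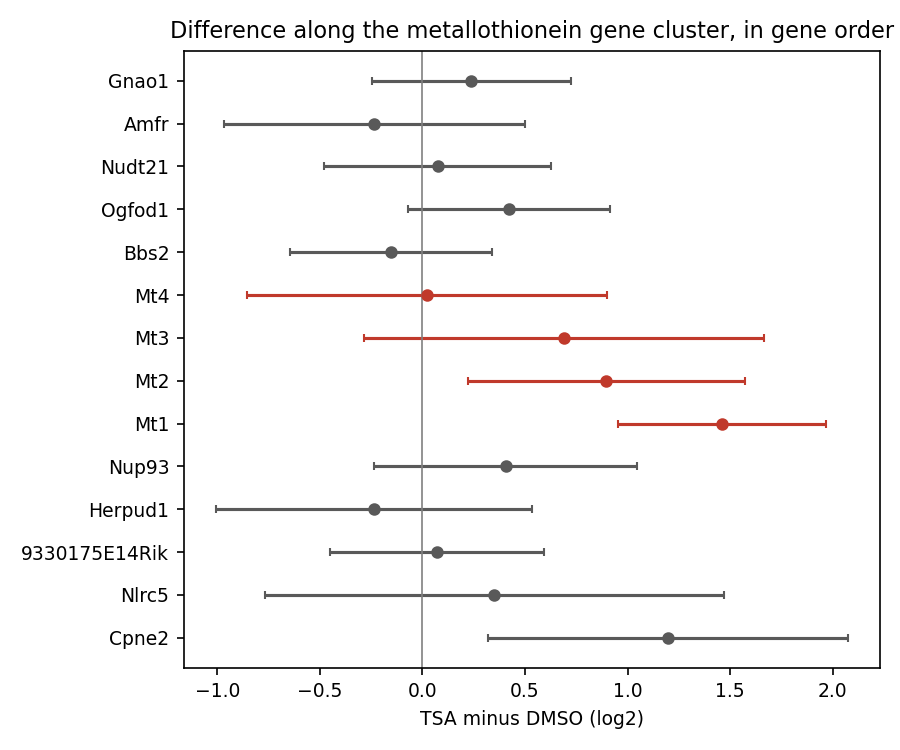
Log2 difference, TSA minus DMSO, and its 95% interval for Mt1 to Mt4 (red) and the 5 tested genes on each side (grey), from top to bottom in the gene order of the reference table. Mt1 has the largest difference (1.46), Cpne2 has 1.20, and the intervals of Mt4, Nup93 and Bbs2 cross 0.

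Among the other zinc transporters 1 exporter gene, Slc30a2, rose. The Slc30 family moves zinc out of the cytosol, into vesicles and organelles or out of the cell. Of its 8 other tested genes, 1 rose and 0 fell. A higher mean in TSA cells was seen in 5 of them, beside 58.1% of all tested genes. The median difference was 0.17, next to 0.08 over all tested genes. Slc30a2, an exporter known for loading zinc into vesicles and for zinc in milk, had levels of 0.55, 0.81 and -0.09 in TSA replicates 1, 2 and 3, against -1.48, -1.57 and -1.91 in DMSO replicates 1, 2 and 3. The groups were far apart, with means of 0.42 ± 0.46 in TSA and -1.65 ± 0.23 in DMSO cells (SD, n = 3 each). The difference was 2.08 ± 0.29 (SE, interval 1.38 to 2.77, adjusted p 0.0389), and it was 2.03, 2.38 and 1.82 within slides 1, 2 and 3. Like that of Mt1, this call was lost in 5 of the 6 fits that left out 1 array, with adjusted p of 0.0650 without TSA replicate 3, 0.160 without TSA replicate 1 and 0.181, 0.184 and 0.193 without DMSO replicates 2, 3 and 1. It was 0.0291 without TSA replicate 2.

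Slc30a3, which loads zinc into synaptic vesicles of neurons, had levels of -2.60, -2.18 and -2.79 in TSA replicates 1, 2 and 3, against -4.16, -3.51 and -3.73 in DMSO replicates 1, 2 and 3. Its arrays did not overlap, but the difference of 1.28 ± 0.27 (SE, interval 0.63 to 1.92) missed the threshold with an adjusted p of 0.0989. Slc30a6 had a difference of 0.47 ± 0.25, Slc30a9 of -0.52 ± 0.35 and Slc30a4 of -0.74 ± 0.50, with adjusted p of 0.538 to 0.624. With TSA replicate 2 left out these differences were 0.27, -0.17 and -0.15. The median of the 8 Slc30 genes within slides 1, 2 and 3 was 0.41, 0.14 and 0.24. Slc30a8, known from insulin granules, was not above background on enough arrays to be tested.

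The Slc39 family works the other way and brings zinc into the cytosol. Of its 13 tested genes 0 rose and 0 fell in limma (2 were higher at an unadjusted p under 0.05). Of the 13, 8 had a higher mean in TSA cells, beside 58.1% of all tested genes. The median difference was 0.03 (0.02, 0.34 and -0.01 within slides 1, 2 and 3). The smallest adjusted p were those of Slc39a11 (0.87 ± 0.31, adjusted p 0.318), Slc39a4, the importer of the gut that is mutated in inherited zinc deficiency in humans (0.57 ± 0.23, adjusted p 0.414), Slc39a14 (-0.46 ± 0.21, adjusted p 0.460) and Slc39a10 (-0.71 ± 0.38, adjusted p 0.546). Without TSA replicate 2 the differences were 0.56 for Slc39a11, 0.41 for Slc39a4, -0.47 for Slc39a14 and -0.32 for Slc39a10. The importers held differences of both signs and none that passed.

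**Figure D3:**
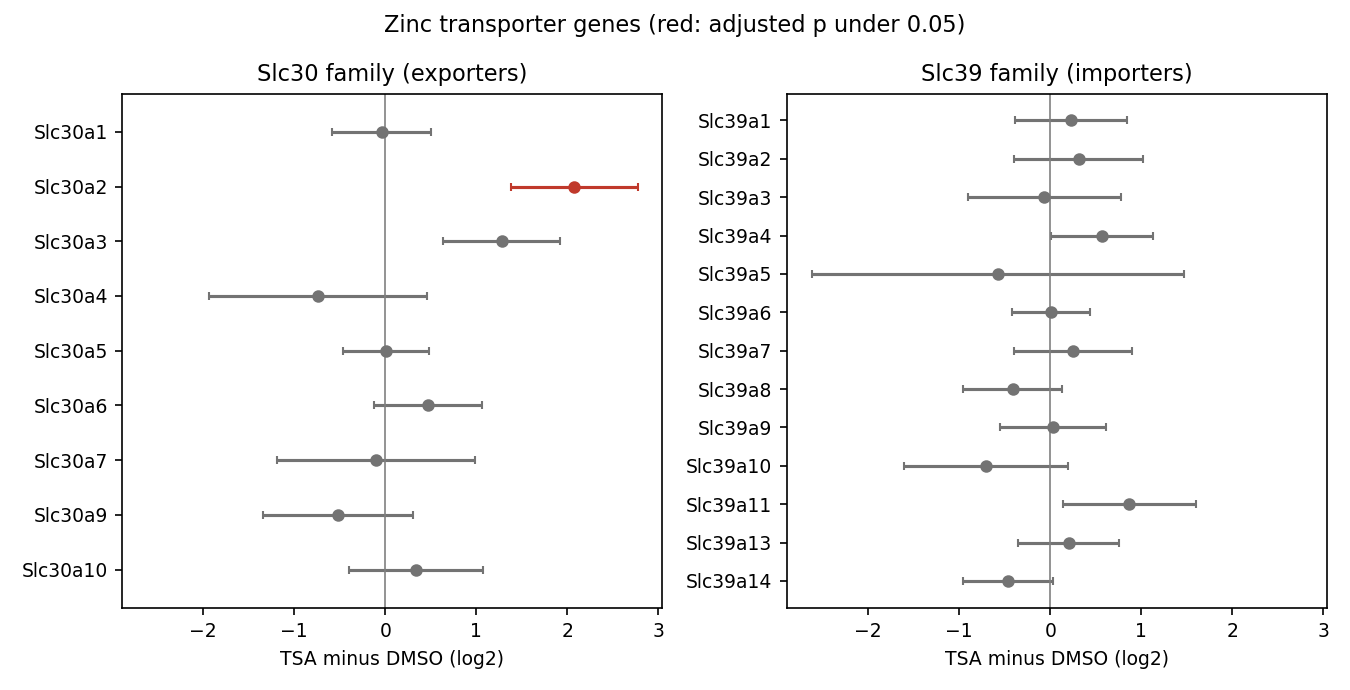
Log2 difference, TSA minus DMSO, and its 95% interval for the tested Slc30 exporters (left) and Slc39 importers (right), with genes past the threshold in red. Slc30a2 (2.08) is the only gene in red, and Slc30a1 (-0.04) is near 0.

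Genes that share a regulator with metallothioneins were read as lists, each by its count and its median. In limma 14.9% of all tested genes had an unadjusted p under 0.05, and 58.1% had a higher mean in TSA cells. Of 9 other known targets of the Mtf1 product, 0 rose and 0 fell (0 had an unadjusted p under 0.05), 6 had a higher mean in TSA cells and the median difference was 0.01 (-0.16, 0.27 and 0.03 within slides 1, 2 and 3). Among them were Csrp1, which encodes a LIM protein of the cytoskeleton (0.83 ± 0.41, adjusted p 0.515), Slc39a10 (given above), Slc30a10, a manganese exporter (0.34 ± 0.31, adjusted p 0.688), and Ndrg1, a stress response gene (-0.36 ± 0.47, adjusted p 0.773). Leaving out TSA replicate 2, Csrp1 had 0.44, Slc30a10 0.54 and Ndrg1 -0.68. Metallothioneins also bind copper, and of 9 tested genes for copper handling 0 rose and 0 fell (0 with an unadjusted p under 0.05), with a median of -0.05 (0.01, 0.27 and 0.08 within slides 1, 2 and 3). The copper chaperone genes Cox17 and Atox1 had differences of 0.36 ± 0.21 and 0.31 ± 0.25, and Slc31a1, the copper importer, had -0.18 ± 0.22. Without TSA replicate 2 these were 0.21, 0.13 and -0.34.

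The 14 genes for the oxidative stress response of the factor NRF2 had a median difference of 0.26. None passed the threshold in either direction (1 higher and 1 lower at an unadjusted p under 0.05). Of the 14, 11 had a higher mean in TSA cells, beside 58.1% of all tested genes. Within slides 1, 2 and 3 the median was 0.12, 0.63 and 0.21. Hmox1, the heme-degrading enzyme, differed by 1.81 ± 0.86 (adjusted p 0.491), and its differences of 0.08, 4.10 and 1.26 within slides 1, 2 and 3 were far apart, with slide 2 the highest. Slc7a11, the cystine importer, had the smallest adjusted p of the list and a negative difference, -1.17 ± 0.39 (adjusted p 0.283). The ferritin light chain gene Ftl1 had 0.71 ± 0.29 (adjusted p 0.416) and the glutathione transferase gene Gsta4 had 0.66 ± 0.29 (adjusted p 0.462). Slide 2 was the highest for both, with 0.56, 1.35 and 0.22 for Ftl1 and 0.34, 1.30 and 0.33 for Gsta4 on slides 1, 2 and 3. Without TSA replicate 2 the differences were 0.42 for Ftl1, 0.37 for Gsta4 and 1.17 for Hmox1.

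Of 9 tested genes that respond to glucocorticoids, 0 rose and 0 fell (1 higher at an unadjusted p under 0.05) and the median difference was 0.03 (0.05, 0.22 and 0.18 within slides 1, 2 and 3). Sgk1, a kinase, had the largest difference, 0.98 ± 0.32 (adjusted p 0.274), and Fkbp5, a receptor co-chaperone, had 0.37 ± 0.19 (adjusted p 0.530). Of 11 heat shock genes, 0 rose and 0 fell (3 higher at an unadjusted p under 0.05) with a median of 0.06 (-0.18, 0.37 and -0.01 within slides 1, 2 and 3). The small heat shock gene Hspb1 (1.38 ± 0.36, adjusted p 0.169) and the inducible Hsp70 genes Hspa1b (1.04 ± 0.28, adjusted p 0.187) and Hspa1a (1.05 ± 0.31, adjusted p 0.222) had positive differences, while the mitochondrial chaperonin gene Hspd1 had -0.50 ± 0.22 (adjusted p 0.461). Hspa1a and Hspa1b are near-identical copies whose probes may not separate them.

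**Figure D4:**
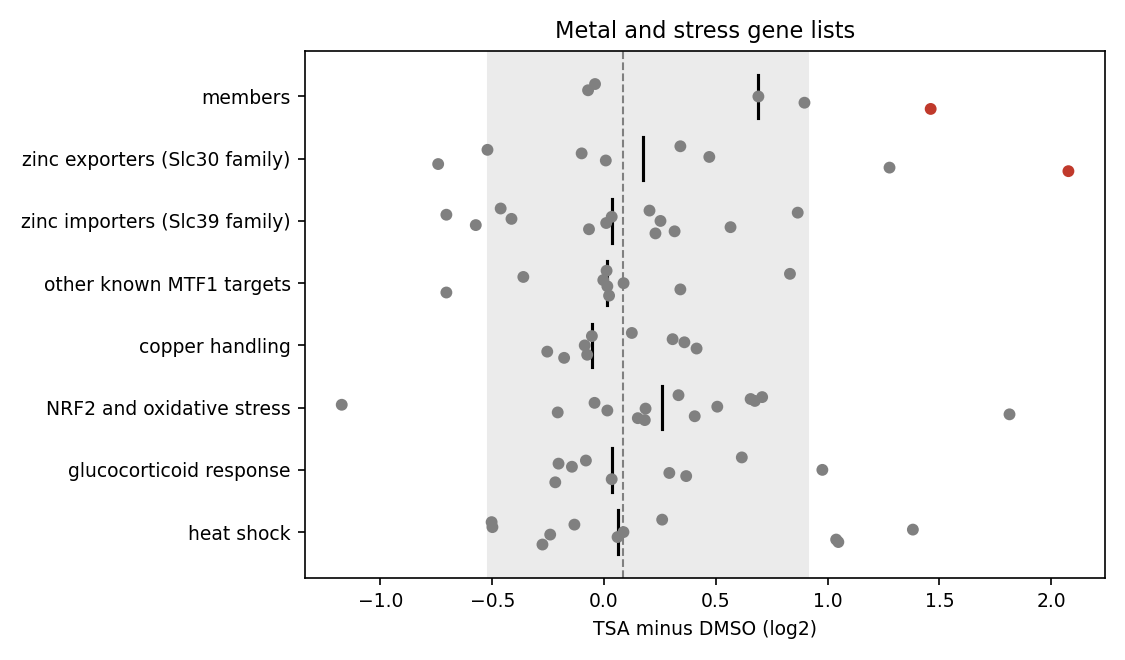
Log2 difference, TSA minus DMSO, for each tested gene (points, red where past the threshold) of the 5 genes and of the metal and stress lists, with the list median as a black bar, the median of all tested genes (0.08) as a dashed line and their 10th to 90th percentile in grey. The only red points are Mt1 (1.46) and Slc30a2 (2.08).

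The genes whose pattern over the 6 arrays lay closest to that of Mt1 were found by the root mean square difference between the levels of 2 genes, each centred on its own mean, among 12840 named genes above background on every array. The closest 5 were Rhcg, an ammonium transporter (root mean square difference 0.061), Cd34, a surface glycoprotein of blood progenitors and endothelium (0.080), Baiap2l2 (0.088), the lens crystallin gene Crygc (0.090) and Zpbp2 (0.100). They were picked for likeness to Mt1 on these same arrays, so differences and calls near those of Mt1 follow from the choice. Of the 5, Rhcg, Cd34, Baiap2l2 and Crygc rose, by 1.47 ± 0.21, 1.40 ± 0.21, 1.44 ± 0.21 and 1.52 ± 0.22 on the log2 scale. Zpbp2 had 1.42 ± 0.24 with an adjusted p of 0.0577. Each of these 4 calls held without TSA replicate 2 and was lost without any 1 of the other 5 arrays, with adjusted p of 0.0868 to 0.214. With normexp background correction the differences of Rhcg, Baiap2l2 and Crygc were 0.71, 0.72 and 0.47, and these 3 did not pass, while Cd34 did (1.17). Mt2 came at rank 351, Mt3 at 1670, Slc30a1 at 6729 and Mtf1 at 6938. The closest 5 by this measure held none of the other zinc genes. By Pearson correlation with Mt1 over the 6 arrays, Mt2 had 0.93, Mt3 0.70, Slc30a1 0.02 and Mtf1 -0.05.

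For Mt2 the closest 5 were Asphd2 (root mean square difference 0.095), Slc4a8, a bicarbonate transporter (0.105), Adcy3, an adenylyl cyclase (0.105), Angptl4, a secreted inhibitor of lipoprotein lipase (0.109), and Acss2, an acetyl-CoA synthetase (0.117). None of the 5 passed the threshold, with differences of 0.88 to 1.05, which lie near that of Mt2 by the way they were picked. Mt1 was at rank 953 for Mt2 and Mt3 at 1313. These ranks describe 6 arrays that share their slides in pairs and carry no test.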

How the data were processed

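The deposited array files hold the intensity of each spot, read with Agilent Feature Extraction, 10.7 per the submitters' processing notes, with a processed signal that, per the file headers, was background-subtracted and detrended but not scaled between arrays. All Mt1 and Mt2 spots had been scaled up from a low-gain scan, per the file headers. The authors also deposited a series table on the log2 scale, with medians of 6.31 to 6.34 and a shared maximum of 19.1. Its normalization between arrays is not stated, and it served as an alternative.

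Control spots and those with an outlier flag (57 to 84 an array) were dropped. The level is the processed signal on a log2 scale less the array's 75th percentile, averaged over the spots of a probe. Of 41174 probes, 28160 were well above background on at least 3 of 6 arrays and were tested with limma 3.58.1 in R 4.3.3 (lmFit, eBayes, two-sided, Benjamini-Hochberg over all tested probes, threshold 0.05). Probes were named by transcript identifier (27479 with 1 gene, 0 with several, 13695 unnamed), and the tested probe of highest mean stands for its gene. The fit had treatment as its single term. The replicate number is the slide number, and the deviations of arrays of the same slide correlated at 0.484, 0.614 and 0.585, against -0.568 to 0.0916 between slides, so the numbers pair the samples. The fit was tested on simulated data. Python 3.11.15, numpy 2.4.6, pandas 2.3.3 and matplotlib 3.10.9 were used. The number of arrays limits the precision.

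The genes and the 13 lists were chosen with earlier results of these data known. Named are the 5 genes, per list every called gene and up to 4 others with the smallest adjusted p, the 5 genes most alike Mt1 and Mt2 (passing over clone and predicted-gene symbols), and the 5 tested neighbours on each side of the cluster; not every gene so named is printed. Promoter windows are those of RefSeq (GRCm38.p6). Alternatives were other normalizations, background correction, filters, variance models and probes, the replicate block, and arrays or slides left out; the block without slide 2 and the list counts without TSA replicate 2 were added after seeing the data. The normexp alternative (offset 50) ran on median spot signals.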

Additional observations from a re-analysis of the deposited data

How the results depend on the processing

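The Mt1 difference was positive under every alternative run, and its call was lost with quantile normalization (1.43), median centring (1.37), the authors' table (1.31), no filter (1.46) and slide 2 left out (1.30). With 1 array left out Mt1 ran from 1.35 to 1.56, and the call held only without TSA replicate 2. Slides 1 and 2 alone gave 1.23 and 1.78 for Mt1, 0.50 and 1.62 for Mt2, and slide 2 alone gave 1.30 for Mt3. Mt2 and Mt3 passed under no alternative, with 0.67 to 1.06 and 0.27 to 0.93 with 1 array left out. The sign of Mtf1 turned on slide 2 (0.11), with its second probe (0.15) and without TSA replicate 3 (range -0.19 to 0.041 with 1 array left out). That of Slc30a1 turned on slides 2 and 3 (0.13 and 0.069, against -0.32 on slide 1) and without DMSO replicate 1 (range -0.13 to 0.14).

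Slc30a2 lost its call with quantile normalization (2.06), median centring (1.98), no filter (2.08) and slide 2 left out (1.92). The 269 probes called became 156 with quantile normalization, 140 with median centring, 146 with normexp, 149 with the authors' table, 58 with no filter and 1648 with array weights. With the replicate block 658 probes were called (464 genes rose and 21 fell), Mt1 kept its call (adjusted p 0.0438), Slc30a2 kept its (0.0311), and none of Mt2, Mt3, Mtf1 and Slc30a1 passed. Without slide 2 limma called 0 probes (4997 at an unadjusted p under 0.05), and 3057 with the block added. With 1 array left out the count ran from 0 to 629; without TSA replicate 2 it was 629, and 431 genes rose and 29 fell. The counts of the metal and stress lists were as given with the block and without TSA replicate 2. With the block and without slide 2, where 3057 of 28160 tested probes were called, 5 lists gained a call. In this setting Slc30a3 (adjusted p 0.0319), Slc39a11 (0.0447), Sgk1 (0.0349) and Hspb1 (0.0259) rose and Slc7a11 (0.0180) fell. Slc30a3 and Hspb1 also passed with array weights (0.0215 and 0.0283), where 1648 probes were called. Zpbp2 and the 5 genes closest to Mt2, all picked for their likeness to Mt1 or Mt2, also passed with the block and without slide 2. Rhcg, Baiap2l2 and Crygc lost their calls with quantile normalization, median centring, normexp, the authors' table, no filter, an intensity trend and slide 2 left out, and Cd34 with median centring, the authors' table, no filter and slide 2 left out. The causes were not tested.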

Other observations

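Among the lineage markers read beside the metallothioneins, limma called 0 in either direction. At an unadjusted p under 0.05, 2 of 8 pluripotency, 2 of 6 mesendoderm, 2 of 5 astroglia and 1 of 8 neural progenitor markers were higher. Lower at that threshold were 1 astroglia (Slc1a3, -0.66 ± 0.21), 1 neural progenitor (Pax6, -1.21 ± 0.24) and 1 of 5 neuron markers (Dcx). Over all tested genes 14.9% had an unadjusted p under 0.05 in either direction. All 6 mesendoderm markers had a higher mean in TSA cells, beside 58.1% of all tested genes, with a median difference of 1.81. With the slide as a term 3 of them passed, beside 3.19% of all tested genes that rose in that fit. Lhx5, a neural progenitor marker (1.49 ± 0.52), and Dcx, a neuron marker (-1.61 ± 0.63), also passed with that term only. Aqp4, an astroglia marker, differed by 1.66 ± 0.28 (adjusted p 0.0577 in limma) and passed without TSA replicate 2. It was well above background on only 2 TSA arrays and 1 DMSO array. With normexp background correction its difference was 0.26 (adjusted p 0.438 in limma).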
